A study of Mus musculus with 9 samples.

Results

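Insulin signalling and glucose transport were followed through 9 genes in epididymal adipose tissue of mice losing weight. The genes were taken by symbol from the authors' table of counts, and they are the insulin receptor *Insr*, its substrates *Irs1* and *Irs2*, the phosphoinositide 3-kinase subunit *Pik3r1*, the kinase *Akt2*, the Rab GTPase-activating protein *Tbc1d4*, the glucose transporters *Slc2a4* and *Slc2a1*, and the transcription factor *Foxo1*. They are 9 of 56748 genes in the table, and all 9 were among the 18510 genes with enough reads to be tested.

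RNA was sequenced from the tissue of male wild-type C57BL/6J mice that were 8 weeks old when feeding began. All mice received a high-fat diet (HFD) for 8 weeks. The 3 libraries of Pre were taken at that point, and the 3 libraries each of WL1 and WL2 were taken after a further 1 week or 2 weeks on standard diet (SD), during which the mice lost weight. No group of these libraries was kept on SD throughout or on HFD for the extra weeks, so the phases differ in age as well as in diet, and the labels do not say whether a library holds the tissue of 1 mouse or of several.

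Insulin binds its receptor, a tyrosine kinase, which phosphorylates the insulin receptor substrates. The substrates recruit phosphoinositide 3-kinase, whose lipid product brings AKT to the plasma membrane. In adipocytes, AKT2 phosphorylates TBC1D4 (also called AS160) and so releases a brake on vesicles that carry the transporter GLUT4 (*Slc2a4*) to the cell surface, and AKT also keeps FOXO1 out of the nucleus.

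*Akt2* fell after 1 week of SD and was lower than at Pre after 2 weeks, and it was the only gene of the 9 to pass the test in either comparison with Pre. Its level fell by 41.0% at WL1 and by 24.1% at WL2. The other 8 genes did not pass the test in any comparison. *Tbc1d4* at WL1 and *Insr* at WL2 came closest, with adjusted p-values of 0.0541 and 0.0570 (edgeR quasi-likelihood test, Benjamini-Hochberg adjustment over all genes tested). Of the 9 genes, 0 were higher and 1 lower at WL1 (11.1% called), where 7.29% of all tested genes were called, 2.6% as higher and 4.69% as lower. For WL2 against Pre again 0 were higher and 1 lower, where 10% of all genes were called, 3.35% as higher and 6.66% as lower. Applied to log2(FPKM + 1), limma also called 1 of the 9 in each of these comparisons (7.03% and 9.83% of all genes). Between WL1 and WL2 edgeR called 0 of the 9 genes (3.68% of all genes, 1.31% as higher and 2.37% as lower), and limma called 0 (2.9% of all genes). In that comparison 4 genes had an unadjusted p under 0.05 (*Insr*, *Akt2*, *Pik3r1* and *Foxo1*; 21.4% of all genes), and DESeq2 called 3 of them (*Akt2*, *Pik3r1* and *Foxo1*; 11.9% of all genes). The comparisons of WL1 and WL2 with Pre share the 3 Pre libraries.

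The libraries held 16434450 to 22729072 counts. Levels are given as CPM, the share of a gene in the counts of its library on a common scale, after TMM scaling, which sets library sizes by the bulk of the genes, so a level is the share of the RNA sampled in a library and not an amount per cell. In whole tissue, fewer cells of a type and less RNA per cell cannot be told apart. The 8 adipocyte markers, which define the tissue, were detected in every phase: their summed FPKM (fragments scaled by gene length and library) was 8059 to 10393 at Pre, 5759 to 7241 at WL1 and 7881 to 8641 at WL2. Of these, *Plin1* and *Cidec* fell at WL1 and *Cidec* was lower at WL2. At WL1 the median log2 fold change of the 8 adipocyte markers was -0.46, and 6 had an unadjusted p under 0.05 (edgeR; 24.3% of all genes). The summed FPKM of 8 macrophage markers was 377 to 626 at Pre, 939 to 1900 at WL1 and 383 to 1013 at WL2, with WL1 replicate 3 the highest and WL2 replicate 1 above the other WL2 libraries. Of the 8, *Msr1* rose at WL1, and 6 had an unadjusted p under 0.05 there (edgeR; 24.3% of all genes). From WL1 to WL2, 7 of the 8 had one (21.4% of all genes). Markers of red blood cells summed to 1071 to 1825 at Pre to 394 to 649 at WL1 and to 462 to 868 at WL2, and 4 of 4 fell at WL1 and 3 of 4 were lower at WL2 than at Pre. Mesothelium markers (5 genes) summed to 9.55 to 96.5 at Pre, 11.6 to 55.0 at WL1 and 62.1 to 178 at WL2, and 0 passed the edgeR test, while 5 of 5 had an unadjusted p under 0.05 from WL1 to WL2. Hepatocyte markers (5 genes) summed to 5.07 to 42.4 at Pre, 1.40 to 36.5 at WL1 and 1.67 to 3.16 at WL2, and *Serpina1a* was lower at WL2 than at Pre. Pre replicate 2 held B cell markers at a summed FPKM of 84.9, where the other libraries held 7.94 at most. The part of these cells in the results below was not tested, except where a value is given.

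**Figure D1:**
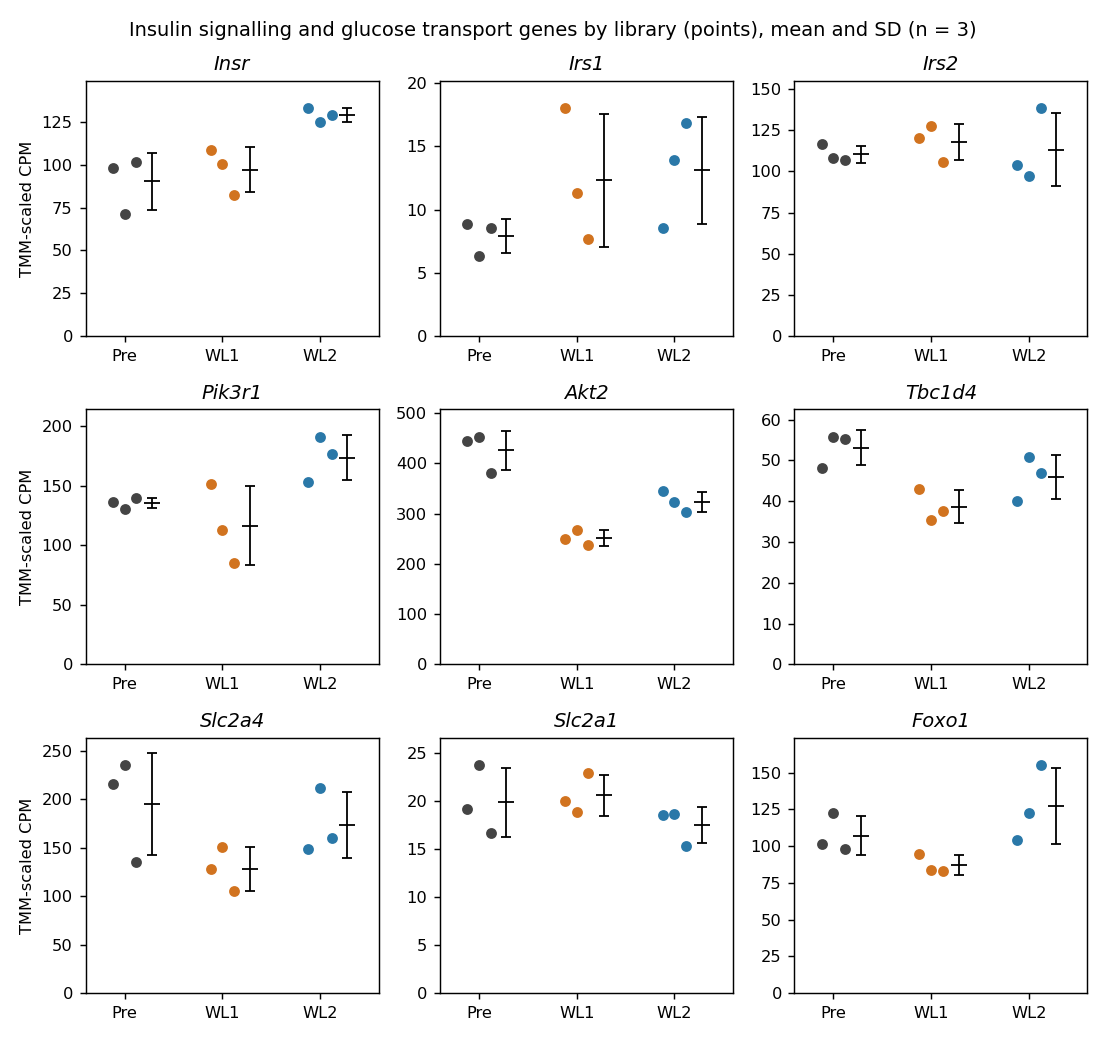
Level of each of the 9 genes in every library, in TMM-scaled CPM (vertical axes from 0, scaled per gene), with points for libraries and bars for mean and SD (n = 3) in each phase. The 3 *Akt2* points of WL1 (238 to 268 CPM) lie below those of WL2 (304 to 344), which lie below those of Pre (381 to 453).

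The insulin receptor gene *Insr* (ENSMUSG00000005534, chromosome 8, 3172061 to 3329617, minus strand) was measured at 98.2, 71.1 and 102 CPM at Pre, at 108, 101 and 82.6 CPM at WL1 and at 133, 125 and 129 CPM at WL2. The 3 WL2 libraries were above every other library, and the Pre and WL1 libraries overlapped. The mean was 90.4 ± 16.8 CPM (SD, n = 3) at Pre, 97.2 ± 13.2 at WL1 and 129 ± 4.04 at WL2. WL2 was above Pre by a difference of 42.7% with a 95% interval from 13.3% to 79.7%, which did not pass the adjustment over all genes (log2 fold change 0.51, SE 0.15, adjusted p = 0.0570, edgeR). The call is close to the threshold: it was past it under 5 of 20 alternative settings, among which the adjusted p ranged from 0.0164 to 0.140. WL1 differed from Pre by 0.10 (SE 0.15, adjusted p = 0.711) on the log2 scale, with a 95% interval from -0.23 to 0.44, and the sign of this difference turned without Pre replicate 2 (-0.042). Between WL1 and WL2 the log2 fold change was 0.41 (SE 0.15, adjusted p = 0.148).

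*Insr* made up most of the receptor mRNA of its family. Relative to the summed FPKM of *Insr*, the insulin-like growth factor receptor gene *Igf1r* and the related *Insrr*, its share averaged 81.8% ± 2.13 (SD, n = 3) at Pre, then 80.8% ± 2.42 and 81.7% ± 1.58 at WL1 and WL2. The libraries of the phases overlapped in this share. *Igf1r* itself passed the test at WL2 against Pre (log2 fold change 0.54, SE 0.15, adjusted p = 0.0467, edgeR). That call lay close to the threshold, and its results under the alternative settings are not given.

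The substrates differed widely in level. *Irs1* (ENSMUSG00000055980, chromosome 1, 82210822 to 82269137, minus strand) had the lowest level of the 9 genes per length of transcript, and *Irs2* (ENSMUSG00000038894, chromosome 8, 11034681 to 11058458, minus strand) came after *Slc2a4* and *Akt2* at every phase. *Irs1* was at 8.84, 6.33 and 8.53 CPM at Pre, 18.0, 11.3 and 7.64 CPM at WL1, and 8.54, 13.9 and 16.8 CPM at WL2. WL1 and WL2 each held libraries within the range of Pre and libraries above it, and the spread within them was wide (12.3 ± 5.26 and 13.1 ± 4.21 CPM, against 7.90 ± 1.37 at Pre; SD, n = 3). The log2 fold change was 0.64 (SE 0.32, adjusted p = 0.254) at WL1 and 0.73 (SE 0.32, adjusted p = 0.186) at WL2, with a 95% interval from 0.011 to 1.44 for the latter. Neither difference from Pre passed the test, and without WL1 replicate 1 the log2 fold change at WL1 was 0.26.

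*Irs2* did not pass the test in any comparison. It was at 116, 108 and 107 CPM at Pre, 120, 127 and 106 CPM at WL1, and 104, 97.6 and 138 CPM at WL2. The phases overlapped, and WL2 replicate 3 was the highest library. The log2 fold change from Pre was 0.093 (95% interval -0.22 to 0.40, adjusted p = 0.726) at WL1 and 0.035 (95% interval -0.27 to 0.34, adjusted p = 0.896) at WL2. Without WL2 replicate 3 the difference at WL2 was -0.13.

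A further substrate gene, *Irs3*, which encodes a protein present in rodents, was the most abundant of its family. It held 69.9% ± 6.61, 70.6% ± 1.04 and 69.5% ± 8.00 (SD, n = 3) of the summed FPKM of the IRS genes at Pre, WL1 and WL2. *Irs2* held 28.7%, 27.4% and 28.3% on average, *Irs1* held 1.44%, 1.97% and 2.28%, and *Irs4* had no read in any library. *Irs3* did not pass the test in any comparison (log2 fold change 0.11, adjusted p = 0.791, at WL1; 0.0055, adjusted p = 0.991, at WL2).

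The upstream sequences of *Irs1* and *Irs2* shared a feature that the choice of genes did not use. In the *Irs2* promoter of rodents, a TGTTTTG element close to an E-box, CACGTG, is known as an insulin response element to which FOXO1 binds. Promoter windows of 7 of the 9 genes were found in the RefSeq table for GRCm38.p6, while *Insr* and *Slc2a4* had none there. The window positions are on that build. They cannot be set beside the gene coordinates of the authors' table, which are given without a build. In the 250 bases before each start, CACGTG and TGTTTTG (or CAAAACA, its other strand) were found together for *Irs1* and *Irs2*, and neither was found for the other 5. Over all 32851 promoter windows, 6.021% held CACGTG, 5.561% held TGTTTTG on either strand and 0.2953% (97 windows) held both. The 150 bases before the RefSeq start are printed from the minus strand because they show how near the motifs lie to each other, with CACGTG and TGTTTTG in capitals; the pair was chosen after the sequences were seen.
Irs1, chr1:82291440-82291589: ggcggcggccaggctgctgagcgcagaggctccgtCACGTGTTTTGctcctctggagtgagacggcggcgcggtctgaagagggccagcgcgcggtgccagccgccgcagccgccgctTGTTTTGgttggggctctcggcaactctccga
Irs2, chr8:11008930-11009079: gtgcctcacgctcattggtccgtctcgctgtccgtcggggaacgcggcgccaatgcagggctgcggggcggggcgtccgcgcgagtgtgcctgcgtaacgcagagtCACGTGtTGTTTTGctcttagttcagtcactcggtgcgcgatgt
In *Irs1* the CACGTG began 115 bases before the start and overlapped a TGTTTTG that began at 111, and a further TGTTTTG began at 32. In *Irs2* the CACGTG began 44 bases before the start and the TGTTTTG at 37, with 1 base between them. GTAAACA (or TGTTTAC), a core sequence recognised by FOXO proteins, occurred in 3.166% of all windows and in no window of the 7 genes. For the other genes with a window, the sequence after each RefSeq start was found in a GENCODE M21 transcript of the gene. For *Irs1* and *Irs2* it was not, so their distances hold for the RefSeq start only. A match of letters is a description of the sequence, and binding was not measured here.

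*Pik3r1* (ENSMUSG00000041417, chromosome 13, 101817071 to 101904725, minus strand) encodes the p85-alpha regulatory subunit that links phosphoinositide 3-kinase to the substrates. Its level was 137, 131 and 139 CPM at Pre, 151, 113 and 85.1 CPM at WL1, and 153, 191 and 177 CPM at WL2. The WL1 libraries were spread on both sides of Pre (116 ± 33.2 CPM against 136 ± 4.44; SD, n = 3), while every WL2 library (174 ± 19.1 CPM) was above every other library. None of the differences passed the test: the log2 fold change was -0.22 (SE 0.18, adjusted p = 0.489) at WL1, 0.36 (SE 0.18, adjusted p = 0.244) at WL2, and 0.58 (SE 0.18, adjusted p = 0.1004) from WL1 to WL2, a difference of 49.1%. The value at WL1 was -0.45 without WL1 replicate 1 and -0.048 without WL1 replicate 3. The difference from WL1 to WL2 was past the threshold in 3 of 20 alternative settings, which included DESeq2 and the fit without WL1 replicate 1, with adjusted p-values from 0.0222 to 0.322 over the 20. Among the 3 regulatory subunit genes, *Pik3r1* held 43.4% ± 2.23 (SD, n = 3) of the summed FPKM at Pre, then 39.5% ± 7.25 and 51.2% ± 3.72 at WL1 and WL2.

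*Akt2* (ENSMUSG00000004056, chromosome 7, 27290977 to 27340251, plus strand) encodes the AKT kinase through which insulin drives glucose uptake in adipocytes. It was at 444, 453 and 381 CPM at Pre, 249, 268 and 238 CPM at WL1, and 344, 322 and 304 CPM at WL2. The phases did not overlap in any of the 3 comparisons: Pre was highest, WL1 lowest and WL2 between them. The share of counts from mitochondrial genes had the same order without overlap, with 3.15% to 3.57% at Pre, 1.86% to 2.03% at WL1 and 2.28% to 2.88% at WL2, and its part in the result was not tested. The mean was 426 ± 39.1 CPM (SD, n = 3) at Pre, then 251 ± 15.1 and 323 ± 20.2 at WL1 and WL2.

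At WL1 *Akt2* fell by 41.0% (95% interval -50.2% to -30.1%; log2 fold change -0.76, SE 0.11, adjusted p = 0.00382, edgeR). This passed the test in all 20 alternative settings, with log2 fold changes from -0.83 to -0.66 and adjusted p-values from 8.4e-11 to 0.0238. At WL2 it was lower than at Pre by -24.1% (95% interval -35.9% to -10.1%; log2 fold change -0.40, SE 0.11, adjusted p = 0.0467). That call lay close to the threshold and passed in 6 of 20 settings, with adjusted p-values from 0.00282 to 0.162. Of the 9 fits that left out a library, only that without Pre replicate 3 kept it, and scaling by the library total alone gave -0.25 (adjusted p = 0.154). From WL1 to WL2 the level was higher by 28.6% (95% interval 8.62% to 52.2%; log2 fold change 0.36, SE 0.11, adjusted p = 0.0918), which did not pass.

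*Akt1*, the AKT kinase gene expressed in most tissues, was not called at WL1 (log2 fold change 0.20, SE 0.12, adjusted p = 0.319, 95% interval -0.059 to 0.46). In FPKM, which accounts for transcript length, *Akt2* held 57.8% to 64.1% of the sum of *Akt1* and *Akt2* in the Pre libraries, 41.4% to 45.5% at WL1 and 54.3% to 55.6% at WL2. The mean share of *Akt2* was 60.2% ± 3.43 (SD, n = 3) at Pre, then 43.6% ± 2.03 and 54.8% ± 0.640 at WL1 and WL2. *Akt2* was thus above *Akt1* in every Pre and WL2 library and below it in every WL1 library. The *Akt2* share separated the phases completely, which with 3 libraries against 3 gives the smallest p an exact two-sided permutation test allows, 0.1. The share is built from the same *Akt2* libraries that were tested above, so its separation is a description and not further evidence.

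*Akt2* was set beside the 8 adipocyte markers, whose median log2 fold change at WL1 was -0.46. Of these, 2 fell at WL1 and 6 had an unadjusted p under 0.05 (edgeR). The log2 CPM of *Akt2* was taken relative to the mean log2 CPM of the 8 markers. This value was -2.86, -2.36 and -2.79 at Pre, -3.09, -3.06 and -2.91 at WL1, and -2.86, -2.99 and -3.04 at WL2. WL1 was lower than Pre by a difference of -0.35 and below every Pre library, and WL2 differed from Pre by -0.29 with an overlap. The result varied with the marker used: against single markers the difference between WL1 and Pre ran from -0.70 with *Lpl*, the lipoprotein lipase gene, to 0.082 with *Cidec*, a lipid droplet protein gene, and every WL1 library was below every Pre library with *Lipe*, *Fabp4* and *Pparg*. For WL2 against Pre the difference ran from -0.69 with *Fabp4* to 0.27 with *Cidec*, and it was also above 0 with *Lpl* (0.23). For the same measure *Slc2a4* differed by -0.18 and *Tbc1d4* by -0.048 at WL1, both with overlap. The remaining genes were higher at WL1 on it: *Irs1* by 0.96, *Insr* by 0.52, *Irs2* by 0.50, *Slc2a1* by 0.47, *Pik3r1* by 0.15 and *Foxo1* by 0.11. For *Irs1*, *Insr* and *Irs2* every WL1 library was above every Pre library on this measure, while in CPM their Pre and WL1 libraries overlapped. The share of all genes that separate on this measure was not computed, and single markers were used for *Akt2* only.

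**Figure D2:**
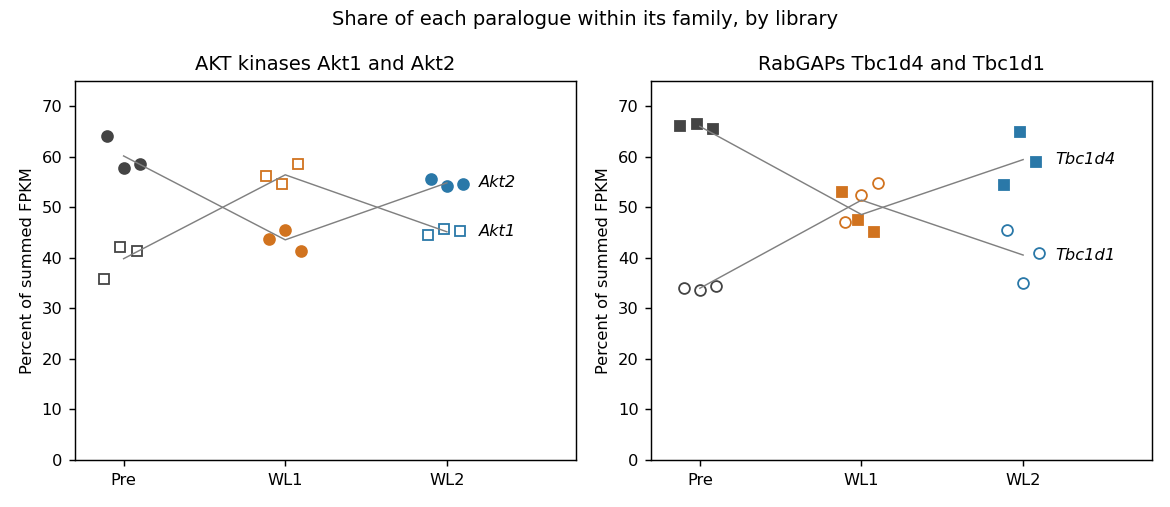
Share of each gene in the summed FPKM of *Akt1* and *Akt2* (left) and of *Tbc1d4* and *Tbc1d1* (right), in percent on the vertical axis, with points for libraries, lines through the phase means and filled points for *Akt2* and *Tbc1d4*. *Akt2* lies above *Akt1* at Pre and WL2 and below it at WL1, and the *Tbc1d4* share goes from 66.0% on average at Pre to 48.6% at WL1.

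*Tbc1d4* (ENSMUSG00000033083, chromosome 14, 101679796 to 101846627, minus strand) was at 48.2, 55.8 and 55.3 CPM at Pre, 43.1, 35.4 and 37.6 CPM at WL1, and 40.1, 50.7 and 47.0 CPM at WL2. Every WL1 library was below every Pre library, and WL2 overlapped both. The log2 fold change at WL1 was -0.46 (SE 0.13, adjusted p = 0.0541), which as a change in percent has a 95% interval from -39.9% to -11.7%, and it did not pass the test; it was past the threshold in 6 of 20 alternative settings, with adjusted p-values from 0.0124 to 0.199. At WL2 the difference from Pre was -0.21 (SE 0.12, adjusted p = 0.317). Its paralogue *Tbc1d1*, a related Rab GTPase-activating protein, rose at WL1 (0.58, SE 0.13, adjusted p = 0.0228). *Tbc1d4* made up 66.0% ± 0.421 (SD, n = 3) of the summed FPKM of the pair at Pre, then 48.6% ± 3.98 and 59.4% ± 5.30 at WL1 and WL2.

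*Slc2a4* (ENSMUSG00000018566, chromosome 11, 69833365 to 69839014, minus strand) encodes GLUT4, the transporter that insulin brings to the cell surface in fat and muscle. It was at 216, 235 and 135 CPM at Pre, 128, 151 and 105 CPM at WL1, and 148, 212 and 160 CPM at WL2. Pre replicate 3 lay well below the other Pre libraries and within the range of WL1, so the phases overlapped. The log2 fold change was -0.61 (SE 0.22, adjusted p = 0.125, 95% interval -1.10 to -0.12) at WL1, -0.17 (SE 0.22, adjusted p = 0.659, 95% interval -0.66 to 0.31) at WL2 and 0.44 (SE 0.22, adjusted p = 0.288) from WL1 to WL2, and none passed the test. Without Pre replicate 3 the difference at WL1 was -0.81 (adjusted p = 0.0379), and over the 20 settings the adjusted p ranged from 0.0379 to 0.470 and was past the threshold in 3. Markers of skeletal muscle, the other tissue rich in GLUT4, were low: the summed FPKM of 5 markers was 18.4 to 28.2 at Pre, 4.38 to 8.08 at WL1 and 5.19 to 14.7 at WL2, 3 of the 5 reached the filter, and 1 had no read in any library. Of the 3 tested ones only *Acta1* was called at WL1, where it fell, while the median log2 fold change of the 3 was 0.12.

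*Slc2a1* (ENSMUSG00000028645, chromosome 4, 118965908 to 118995180, plus strand) encodes GLUT1, the transporter of basal glucose uptake in many cell types. Its level was 19.2, 23.7 and 16.7 CPM at Pre, 19.97, 18.8 and 22.9 CPM at WL1, and 18.6, 18.6 and 15.3 CPM at WL2. Every WL2 library was below every WL1 library, and Pre overlapped both. The log2 fold change was 0.053 (95% interval -0.29 to 0.40, adjusted p = 0.869) at WL1, -0.18 (adjusted p = 0.493) at WL2 and -0.23 (SE 0.16, adjusted p = 0.440) from WL1 to WL2. The difference at WL1 changed sign without Pre replicate 3 (-0.059) and without WL1 replicate 3 (-0.039). Endothelial cells are rich in GLUT1, and the summed FPKM of 7 endothelial markers was 206 to 309 at Pre, 179 to 344 at WL1 and 241 to 287 at WL2, with 0 of 7 past the edgeR test and 0 at an unadjusted p under 0.05 in each comparison.

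**Figure D3:**
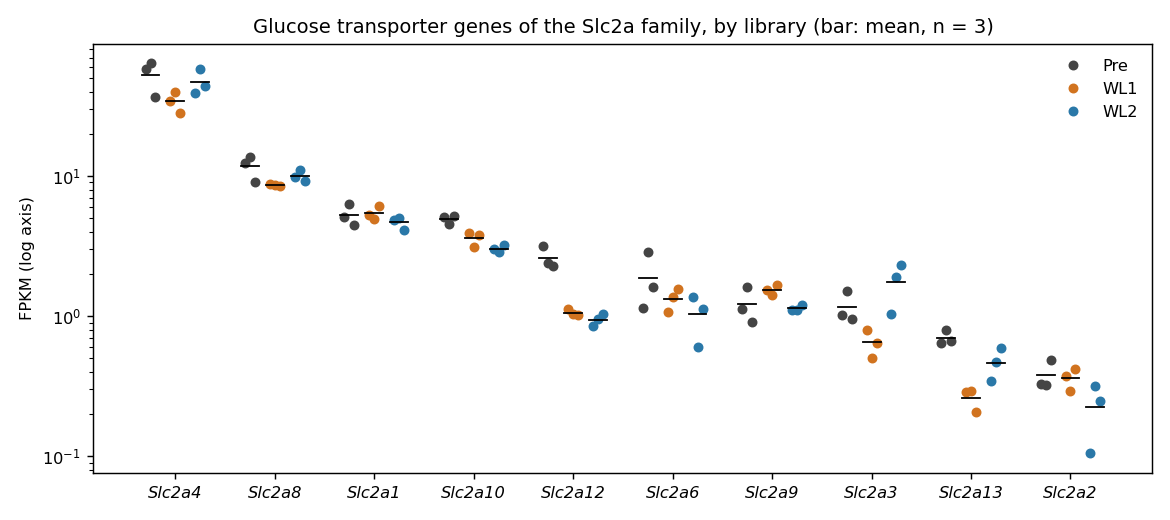
FPKM of *Slc2a4*, *Slc2a1* and the other detected glucose transporter genes of the SLC2A family in every library (log axis), with bars for phase means (n = 3). *Slc2a4* is the highest in all 9 libraries, and the *Slc2a12* points of WL1 and WL2 lie below those of Pre.

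*Slc2a4* was the leading transporter gene at every phase, with 63.3% ± 3.92, 59.5% ± 5.48 and 66.4% ± 3.57 (SD, n = 3) of the summed FPKM of the 12 SLC2A genes at Pre, WL1 and WL2. *Slc2a8*, an intracellular transporter gene, held 14.2%, 15.2% and 14.4% on average. *Slc2a1* held 6.49% ± 0.682 at Pre, 9.64% ± 1.87 at WL1 and 6.73% ± 1.00 at WL2, and its WL1 share was above every Pre and every WL2 library. Of 14 other transporter genes listed, 9 were tested, and 2 fell at WL1 and 2 were lower at WL2 against Pre, while 0 were higher. That is 22.2% in each comparison, where 4.69% and 6.66% of all tested genes were called as lower. *Slc2a12* (GLUT12) fell at WL1 (log2 fold change -1.28, SE 0.18, adjusted p = 0.00315) and was lower at WL2 (-1.46, SE 0.18, adjusted p = 0.000821), from 14.3, 10.7 and 10.2 CPM at Pre to between 3.94 and 5.10 CPM in the later libraries. *Slc2a13*, the proton myo-inositol cotransporter gene, fell at WL1 (-1.39, SE 0.25, adjusted p = 0.0114). *Slc2a10* was lower at WL2 (-0.71, SE 0.13, adjusted p = 0.00824). *Slc2a3*, the high-affinity GLUT3, rose from WL1 to WL2 (1.41, SE 0.30, adjusted p = 0.0356), from 6.24, 3.95 and 5.06 CPM to 8.15, 14.6 and 17.8 CPM.

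*Foxo1* (ENSMUSG00000044167, chromosome 3, 52175757 to 52260642, plus strand) encodes the transcription factor that AKT phosphorylates. It was at 101, 123 and 97.7 CPM at Pre, 94.6, 84.0 and 82.7 CPM at WL1, and 104, 122 and 155 CPM at WL2. The WL1 libraries were below every library of the other phases, and Pre and WL2 overlapped. The log2 fold change was -0.30 (SE 0.15, adjusted p = 0.259) at WL1, 0.25 (SE 0.15, adjusted p = 0.332) at WL2, and 0.55 (SE 0.15, adjusted p = 0.0747) from WL1 to WL2, a difference of 46.0%. None passed the test, and the last was past the threshold in 3 of 20 alternative settings, DESeq2 and the fit without WL2 replicate 1 among them, with adjusted p-values from 0.0144 to 0.243. *Foxo1* held 30.7% ± 0.913, 25.2% ± 1.72 and 32.6% ± 4.07 (SD, n = 3) of the summed FPKM of the FOXO genes at Pre, WL1 and WL2, behind *Foxo4* with 52.2%, 51.7% and 48.9%.

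**Figure D4:**
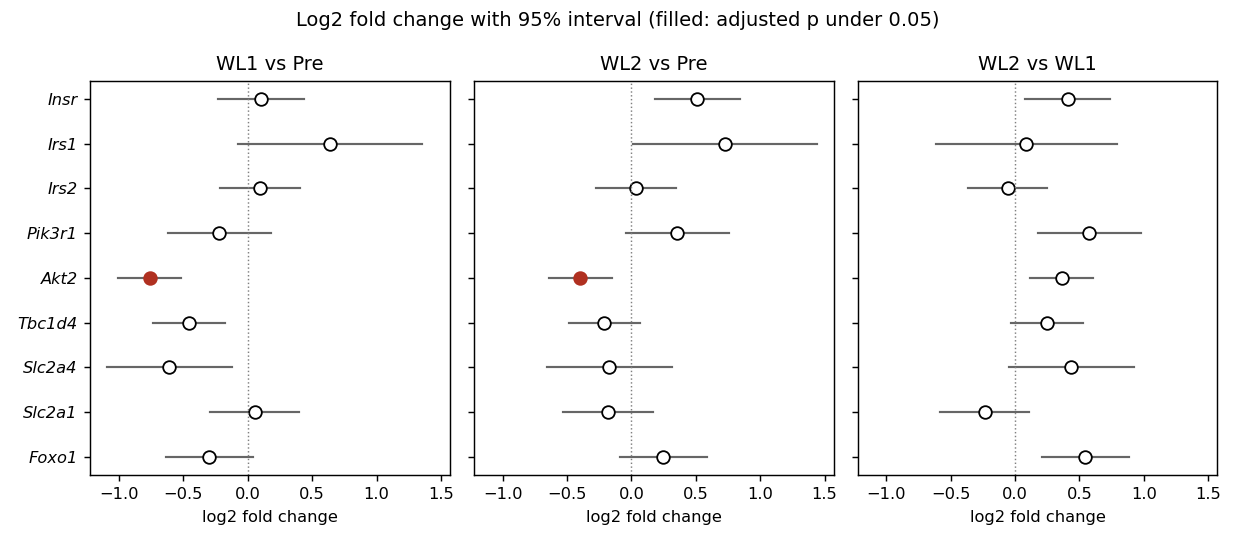
Log2 fold change of each of the 9 genes (horizontal axis, with 95% intervals) for WL1 against Pre, WL2 against Pre and WL2 against WL1, with filled points where the adjusted p was under 0.05. *Akt2* is filled in both comparisons with Pre (-0.76 and -0.40), and no gene is filled between WL1 and WL2.

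Side by side, the 9 genes differed from Pre by a median of -0.22 (log2) at WL1, beside 0.021 for all tested genes, and by a median of 0.035 at WL2, beside 0.0084. From WL1 to WL2 their median was 0.36 against -0.0014 for all genes, and 7 of the 9 values were positive. This course was not particular to the 9 genes. The medians of the adipocyte markers were -0.46 at WL1, -0.067 at WL2 and 0.39 from WL1 to WL2. The part of adipocyte content in the medians of the 9 genes was not tested. Libraries of the phases did not overlap for 3 of 9 genes at WL1 (*Akt2*, *Foxo1* and *Tbc1d4*), where 28.7% of all tested genes did not overlap. At WL2 against Pre they did not overlap for 3 (*Insr*, *Akt2* and *Pik3r1*), against 30.9%, and between WL1 and WL2 for 5 (*Insr*, *Slc2a1*, *Akt2*, *Pik3r1* and *Foxo1*), against 30.3%. At WL1, 3 genes had an unadjusted p under 0.05 (*Slc2a4*, *Akt2* and *Tbc1d4*), and DESeq2 called the same 3, where 24.3% and 14.4% of all genes did so. For WL2 against Pre, 3 had an unadjusted p under 0.05 (*Insr*, *Irs1* and *Akt2*) and DESeq2 called *Insr* and *Akt2*, where the shares of all genes were 26% and 16%.

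Compared per length of transcript, *Akt2* and *Slc2a4* led the 9 genes at every phase. At Pre *Akt2* had a mean of 56.1 FPKM and *Slc2a4* of 52.8, at WL1 the means were 32.7 and 34.1, and at WL2 they were 42.5 and 46.9; the libraries of these genes overlapped within each phase, so their order was not resolved. *Irs2* came next with means of 16.4, 17.3 and 16.8 FPKM, and at Pre and WL1 its libraries overlapped neither neighbour. *Pik3r1* (12.6, 10.7 and 16.2 FPKM) and *Foxo1* (11.6, 9.31 and 13.8 FPKM) followed and overlapped each other at each phase. *Insr*, *Tbc1d4* and *Slc2a1* had means between 4.67 and 8.80 FPKM. At Pre *Tbc1d4* was ahead of *Insr* (6.50 and 6.17 FPKM, with overlap), while at WL2 *Insr* was ahead of *Tbc1d4* (8.80 and 5.62 FPKM, without overlap). *Irs1* was last, with 0.812, 1.25 and 1.35 FPKM.

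Genes of the same pathway outside the 9 were described in 6 lists holding 103 genes, of which 95 were tested. At WL1, 4 passed the test upward and 9 downward, or 13.7% of those tested. For WL2 against Pre, 2 passed upward and 5 downward (7.37%), and from WL1 to WL2, 1 passed each way (2.11%). The shares of all tested genes in these comparisons were those given above, 7.29%, 10% and 3.68%. Results under the alternative settings are given gene by gene for the 9 genes only, and several calls below lay close to the threshold.

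Among the receptors, adaptors and kinases of the core (18 of 19 tested), *Sh2b2*, an adaptor that binds the activated receptor (also called APS), fell at WL1 (log2 fold change -0.94, SE 0.15, adjusted p = 0.00590), from 55.6, 62.3 and 48.2 CPM to 23.6, 32.5 and 30.5 CPM, with no overlap. The value of *Igf1r*, which passed at WL2, is given above. Of the 18 genes that restrain insulin signalling, 2 fell at WL1 (11.1%, beside 4.69% of all tested genes called as lower). These were *Grb14* (-1.08, SE 0.27, adjusted p = 0.0391), whose product inhibits the receptor kinase, and *Lrig1* (-0.71, SE 0.13, adjusted p = 0.0134), a regulator of growth factor receptors. At WL2 against Pre edgeR called 0 of the 18 (10% of all genes), and 3 had an unadjusted p under 0.05 (26% of all genes). *Pid1*, whose product can bind receptors of the LRP family and is known to impair insulin signalling, fell from WL1 to WL2 (-0.42, SE 0.097, adjusted p = 0.0453).

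Of 20 AKT targets and genes of the mTOR complexes and GSK3, 2 rose and 1 fell at WL1 (15% called, beside 7.29% of all tested genes). *Sgk1*, a kinase related to AKT, rose at WL1 (0.73, SE 0.15, adjusted p = 0.0213) and was higher at WL2 (1.19, SE 0.16, adjusted p = 0.00109), with 74.9, 72.5 and 101 CPM at Pre and 197, 167 and 204 CPM at WL2. *Tsc1*, a subunit of the complex that restrains mTORC1, rose at WL1 (0.58, SE 0.14, adjusted p = 0.0314). *Gys1*, the glycogen synthase of muscle and fat, fell at WL1 (-0.79, SE 0.13, adjusted p = 0.00618) and was lower at WL2 (-0.51, SE 0.13, adjusted p = 0.0306), from 114, 102 and 89.5 CPM at Pre to between 53.2 and 64.2 CPM at WL1.

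Genes for GLUT4 vesicle traffic numbered 27, all tested. Of them 11.1% were called at WL1 and 7.41% at WL2 against Pre, beside 7.29% and 10% of all tested genes. *Tbc1d1* rose at WL1, while *Myo1c*, a motor protein, and *Rhoq*, the small GTPase TC10, fell (-0.47, SE 0.11, adjusted p = 0.0364, and -0.55, SE 0.13, adjusted p = 0.0353). *Myo1c* was also lower at WL2 (-0.49, SE 0.11, adjusted p = 0.0247), as was *Trarg1* (-0.56, SE 0.15, adjusted p = 0.0394), whose product regulates GLUT4 trafficking in adipocytes. The other 23 were not called in any comparison. Of 5 hexokinase genes 3 were tested. *Hk2*, the form that insulin induces in fat and muscle, fell at WL1 (-0.78, SE 0.19, adjusted p = 0.0380). *Hk3*, a form found in myeloid cells, rose at WL1 (1.81, SE 0.43, adjusted p = 0.0328), with 21.4, 39.7 and 32.4 CPM at Pre and 77.8, 92.3 and 158 CPM at WL1. Its highest library was WL1 replicate 3, and its highest WL2 library was replicate 1 (73.1 CPM against 25.6 and 26.0), the same libraries that were highest in macrophage markers.

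**Figure D5:**
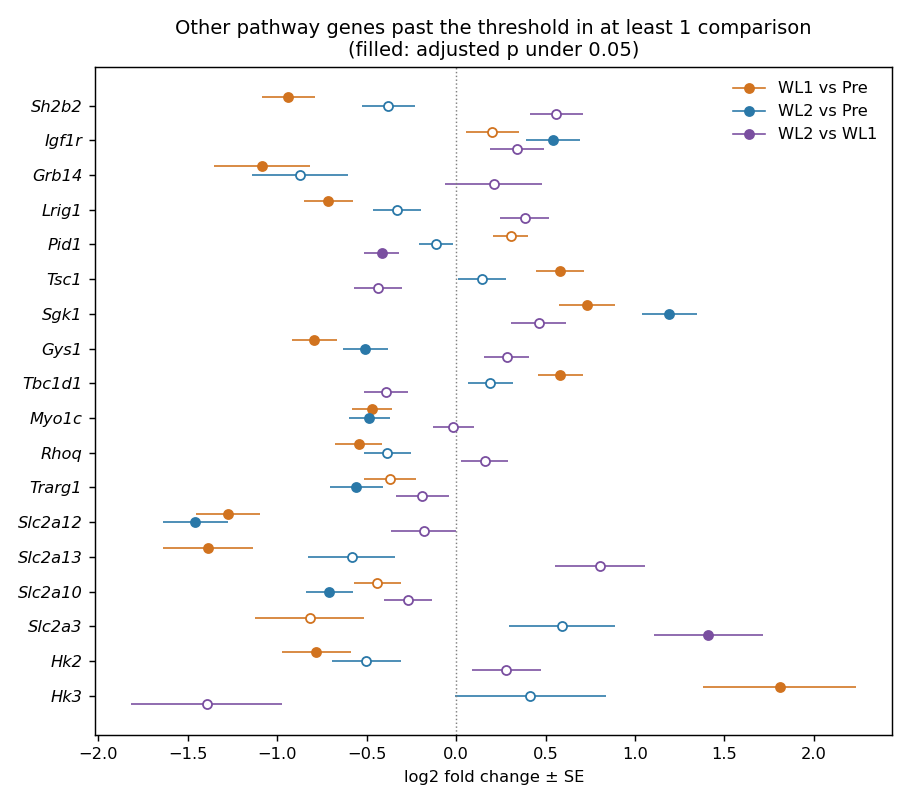
Log2 fold change with SE (horizontal axis) of the 18 other pathway genes past the threshold in at least 1 comparison, in 3 colours for the comparisons, with filled points where the adjusted p was under 0.05. *Slc2a12*, *Gys1* and *Myo1c* are filled below 0 in both comparisons with Pre, and *Sgk1* is filled above 0 in both.

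Of 17 genes linked to FOXO factors in other tissues or cells, 16 were tested. At WL1, 2 rose and 3 fell (31.2% of those tested), at WL2 against Pre 3 were higher and 1 lower (25%), and from WL1 to WL2 2 rose (12.5%). Of all tested genes, 7.29%, 10% and 3.68% were called in these comparisons. *Pdk4*, a kinase that limits the entry of pyruvate into mitochondrial oxidation, rose at WL1 (1.69, SE 0.25, adjusted p = 0.00453) and was higher at WL2 (1.36, SE 0.25, adjusted p = 0.00794), from 74.6, 64.0 and 103 CPM at Pre to 201, 246 and 331 CPM at WL1. *Txnip*, whose product restrains glucose uptake, was higher at WL2 (0.98, SE 0.12, adjusted p = 0.000841), and it rose from WL1 to WL2 (0.55, SE 0.12, adjusted p = 0.0364). *Pck1*, which serves glyceroneogenesis in adipocytes, was higher at WL2 (1.26, SE 0.33, adjusted p = 0.0367), and *Fbxo32*, a ubiquitin ligase gene, rose at WL1 (1.25, SE 0.33, adjusted p = 0.0455). The antioxidant enzyme gene *Sod2* fell at WL1 (-1.06, SE 0.12, adjusted p = 0.000887) and was lower at WL2 (-1.09, SE 0.12, adjusted p = 0.000333). *Klf15*, a transcription factor gene, fell at WL1 (-0.69, SE 0.16, adjusted p = 0.0292) and rose from WL1 to WL2 (1.00, SE 0.16, adjusted p = 0.0124). Members of this list thus passed in both directions.

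For each of the 9 genes, the protein-coding genes whose log2 CPM ran most alike over the 9 libraries were found among 11069 genes with a mean of at least 5 CPM. These correlations are a description, since each is the highest of many over 9 libraries that share phase, depth and cell makeup. *Akt2* was most like *Rida* (Pearson r = 0.988), *Pgm1* (0.977), a phosphoglucomutase gene, and *Pla2g12a* (0.975). *Slc2a4* was most like *Palm* (0.980), *Slc22a18* (0.977) and *Dtx2* (0.976), and *Insr* was most like *Sox17* (0.986), an endothelial transcription factor gene, *Mterf3* (0.972) and *Mapk1ip1* (0.968). *Foxo1* ran most like the transporter gene *Slc2a3* (0.968), *Csrp2* (0.958) and *Rhbdd2* (0.944). The closest genes were *Ednrb* for *Irs1* (0.969), *Ier5l* for *Slc2a1* (0.963), *Ephb6* for *Tbc1d4* (0.959) and *Ctcfl* for *Pik3r1* (0.957). *Irs2* had the lowest top value, 0.828 with *C2cd3*.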

How the data were processed

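RNA of epididymal adipose tissue was sequenced in 9 libraries, 3 per phase, grouped by their labels. The authors deposited raw counts (whole numbers, not normalized) and FPKM of 56748 genes for these libraries. The submitters' processing notes name GRCm38, mm10, HISAT2, HISAT, TopHat2 and CASAVA without roles; the counting program and strand setting are not named in the sources used here. GENCODE M21 (GRCm38) and the authors' table shared 52073 genes, and 1472 of them had equal coordinates, so gene coordinates are those of the authors' table, without a build.

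Genes that reached 0.5 CPM in 1 or more libraries were tested on the counts by the quasi-likelihood test of edgeR 4.0.16 in R 4.3.3 (trimmed mean of M-values, TMM; 1 model over the 9 libraries) and Benjamini-Hochberg adjustment over all 18510 genes, with a threshold of 0.05. Log2 CPM used a prior count of 4. The alternatives were other filters and scalings, DESeq2 1.42.0, limma 3.58.1 on log2(FPKM + 1) and log2(FPKM + 0.1), 2 phases at a time, the replicate number as a block, and leaving out each library. A further alternative, without WL1 replicate 3 and Pre replicate 2, was added after the data were seen. No library repeated another of its phase: the chi-square of their counts was 9.88 to 53.8 per degree of freedom. The genes and lists were chosen with earlier results of these data known. The text names all 9 genes, up to 6 called genes per list with the largest change, further genes needed to describe a family, the 3 genes most like each (or the closest 1), and markers. Some results are not reported here. P-values measure the spread between these libraries, which may be technical.

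On simulated counts of 18510 genes, 45 of 100 genes changed by 1 on the log2 scale and 71 of 100 changed by 2 were recovered for WL1 against Pre, with 5.69% false calls. For WL2 against Pre, 3 of 100 changed by 0.5 and 42 of 100 changed by 1 were recovered (6.25% false calls), and for WL2 against WL1, 5 of 100 and 49 of 100 (6.9%). The simulation covers all expression levels.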

Additional observations from a re-analysis of the deposited data

How the results depend on the processing

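No direction past the threshold was reversed. Of the 9 genes, the number called at WL1 against Pre was 1, and it was 3 without a filter, 2 with the filter on 3 libraries, 3 with DESeq2, 2 with RLE scaling and 2 with upper quartile scaling, and 1 to 2 when each library was left out. At WL2 against Pre it was 1, and it was 2 with DESeq2, 0 with the replicate block, 0 with only the 2 phases compared, and 0 to 1 when each library was left out. Without a filter, under upper quartile scaling, under scaling by the library total and without WL1 replicate 3 and Pre replicate 2, the 1 gene called was *Insr*, higher, in place of *Akt2*. From WL1 to WL2 it was 0, and it was 2 without a filter, 3 with DESeq2, and 0 to 1 when each library was left out.

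Over all genes, 1350 were called at WL1 against Pre, and 2344 with DESeq2, 844 with the replicate block, 574 without WL1 replicate 3 and Pre replicate 2, and 512 to 1500 when each library was left out. At WL2 against Pre 1853 were called, with 743 to 1688 when each library was left out. From WL1 to WL2 681 were called, and 1668 without a filter, 1935 with DESeq2, 330 with the replicate block, 1053 with only the 2 phases compared, 258 without WL1 replicate 3 and Pre replicate 2, and 37 (without WL2 replicate 2) to 1351 (without WL2 replicate 1). Scaling by the library total alone moved the median of all genes to 0.12 at WL1 and 0.16 at WL2, so that 1002 of 1644 and 1495 of 2331 calls were higher, where 482 of 1350 and 620 of 1853 were higher with TMM. The cause of these shifts was not tested.

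Libraries with the same number did not deviate together (r from -0.277 to 0.107 between phases). The labels do not say what the number stands for, so the block was used as an alternative only. With the replicate block *Akt2* kept its call at WL1 (adjusted p = 0.00943, range over the alternatives 8.4e-11 to 0.0238) and lost it at WL2 (0.0611, range 0.00282 to 0.162). In the simulation, changes of 0.5 on the log2 scale were recovered for 3 of 100 genes at WL2 against Pre and 5 of 100 from WL1 to WL2, and that size was not simulated for WL1 against Pre, so genes not called may have changed.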
